A study of Homo sapiens with 14 samples.

Results

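GSK343 was compared with rapamycin in U2OS cells, a human osteosarcoma cell line, by RNA sequencing of poly(A) RNA. The comparison rests on 4 of the 14 libraries of the series: 2 labelled GSK343 and 2 labelled Rapamycin, with 1 of each in each of 2 deposited expression tables. GSK343 was given at 10 µM and rapamycin at 5 µM, both for 24 h, so the time was matched and the dose was not. Cells in DMSO at 0.5% (v/v), for which the labels give no time, serve as the level in vehicle, and cells in 2-PCPA at 1 mM for 12 h enter the estimate of the spread between replicates and the mean that decides which genes are tested. The U2OS cells of these groups grew in RPMI medium with serum, penicillin and streptomycin, and no group carries a genetic change beyond the line itself. Whether replicates came from different cultures is not in the labels, and the p-values reflect no more than the spread between libraries, which may be technical. Genes entered where their mean across these 8 libraries reached 1 FPKM (fragments per kilobase of transcript, scaled to the mapped fragments of the library), and 12123 of the 22919 symbols shared by both tables were tested.

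GSK343 inhibits EZH2, the methyltransferase of Polycomb repressive complex 2 (PRC2), which marks silenced genes by methylating lysine 27 of histone H3. Rapamycin binds the immunophilin FKBP12 and, with it, inhibits mTOR complex 1, the kinase that couples amino acids and growth factors to protein synthesis, lipid synthesis and the restraint of autophagy. Among the transcriptional outputs known to depend on mTOR complex 1 are the sterol response element binding proteins (SREBPs), which switch on cholesterol and fatty acid synthesis, and ATF4, which switches on amino acid supply and stress genes.

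Sterol and fatty acid synthesis genes stood higher under GSK343 than under rapamycin, and no other group of lists held as many of the genes that differed. SCD, DHCR7, DDIT4 and HMGCS1 showed the largest positive differences and ESM1 the largest negative one. On the scale of log2(FPKM + 1), which understates the change of low genes, 121 genes were called at an adjusted p below 0.05 (limma with the replicate number as a block, Benjamini-Hochberg adjustment), which is 0.998% of the genes tested. Of these, 101 were higher under GSK343 (0.833% of the genes tested) and 20 were lower (0.165%). Of the 121, 31 belonged to the 4 lists of sterol and fatty acid genes, all of them higher, and these lists held 52 tested genes. With small RNA rows, clone rows and rows at 0 throughout 1 table kept in the fit, 10 of 12603 genes were called (0.0793%), all higher, and 9 of them were among the 121. With 2 libraries of each compound, an exact permutation test of 1 gene that ignored the tables could not go below p = 0.333. Within tables there are fewer arrangements, so that limit would be higher. The calls therefore depend on the spread that limma shares across genes. At an unadjusted p below 0.05 (limma), 5.65% of the genes tested were higher and 1.93% lower, and the unadjusted counts given for gene lists are to be read against these shares.

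The direction was the same in both tables for 119 of the 121 called genes, the exceptions being NOP56 and RPL17-C18orf32. Over all genes tested, 41% stood above rapamycin in both tables and 20.1% below it in both. In 57 called genes the difference was at least 1 on the log2 scale in each table, 50 of them higher and 7 lower. When each of the 4 GSK343 and rapamycin libraries was left out in turn, 20 genes stayed called every time (in these 4 fits the prior degrees of freedom of limma were infinite, so every gene took its spread from the trend alone), among them SCD, DHCR7, DDIT4, HMGCS1, INSIG1, MSMO1, LSS, MVD, FASN, SQLE, MVK, FADS2, FGF21, IGFL3, SLC29A2, IDI1, LOC645638 and ESM1. Of the 121 calls, 35 remained without GSK343 replicate 1 and 34 without rapamycin replicate 1, against 109 without GSK343 replicate 2 and 82 without rapamycin replicate 2. Differences were larger in the replicate 1 table for 96 of the 101 higher genes, while the absolute difference was larger there for 7599 of all 12123 genes.

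**Figure D1:**
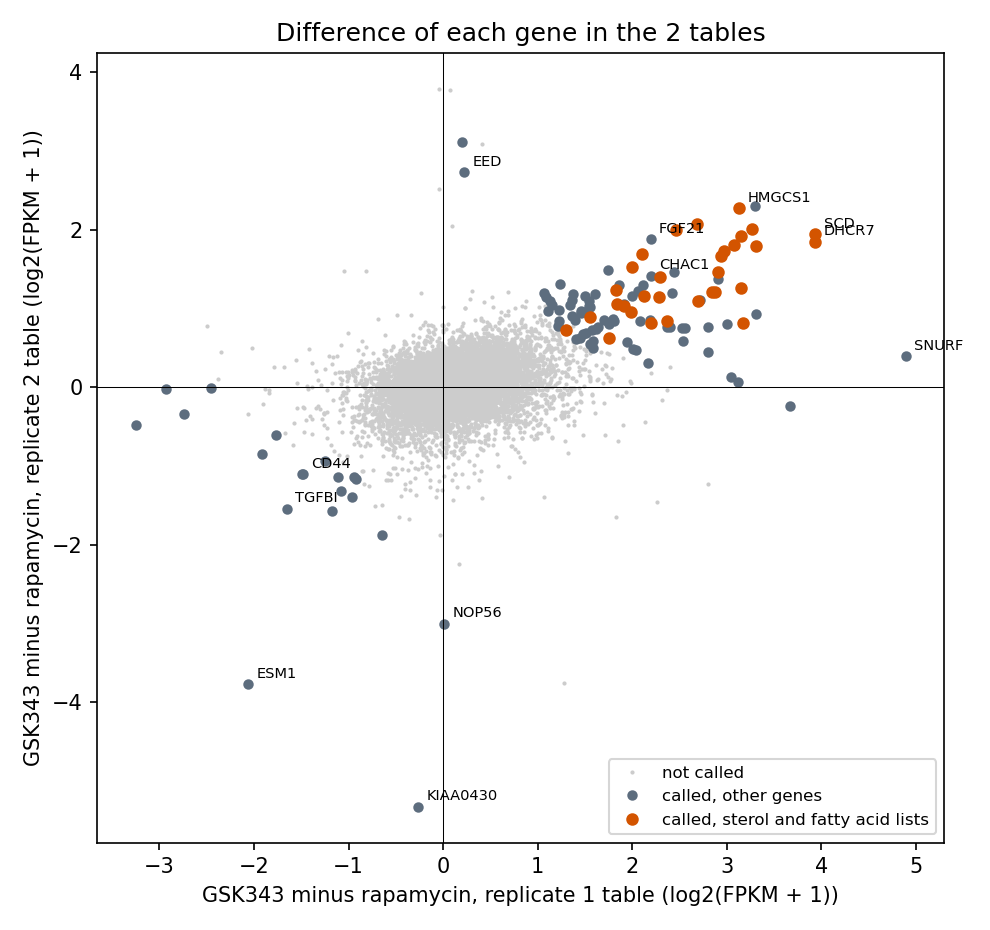
Difference between GSK343 and rapamycin in the replicate 1 table (horizontal axis) and the replicate 2 table (vertical axis), both in log2(FPKM + 1), with 1 point per gene. Orange points are called sterol and fatty acid genes, dark points are the other called genes and grey points were not called; the called lipid genes lie in the upper right, at or above 1 in the replicate 1 table, whereas EED, KIAA0430 and NOP56 lie near 0 in 1 table.

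The libraries compare within a table better than between tables. Across genes, GSK343 and rapamycin correlated at r = 0.966 in the replicate 1 table and 0.983 in the replicate 2 table, whereas the 2 libraries of one compound correlated at 0.911 (GSK343) and 0.910 (rapamycin). From the steps of low FPKM values, the GSK343 library was 1.34 times as deep as the rapamycin library in the replicate 1 table and 0.920 times as deep in the replicate 2 table; the depth in reads is unknown. Each of the 4 libraries had 12469 to 13157 genes at or above 1 FPKM. Of 6 mesenchymal markers VIM, FN1, CDH2, THY1 and ITGB1 were present in every library, while S100A4 was listed at 0 in rapamycin replicate 1. Of the 10 bone lineage markers, SPARC and COL1A1 were high, whereas SP7 and IBSP were at 0. Under each compound, 5 of the 10 were at or above 1 FPKM in replicate 1 and 7 in replicate 2. The 8 blood cell markers summed to 0.358 to 2.28 FPKM in the 4 libraries and the 6 neural markers to 3.95 to 9.31. The 8 epithelial markers summed to 684 to 941 FPKM, nearly all of it from the keratins KRT8 and KRT18, while CDH1, KRT5, ESRP1 and GRHL2 were below 1 FPKM in each of the 4 libraries. Of these 8 markers, 3 were at or above 1 FPKM in GSK343 replicate 1, and 4 were in GSK343 replicate 2 and in both rapamycin libraries. Because these are bulk samples, fewer cells expressing a gene and less RNA of it per cell cannot be told apart.

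The mevalonate pathway, which builds the isoprenoid precursors of cholesterol from acetyl-CoA, was the list with the highest median. Of its 9 tested genes, 7 were called and all 7 were higher under GSK343. HMGCS1, which makes HMG-CoA, was listed at 109 FPKM under GSK343 and 11.5 under rapamycin in the replicate 1 table, and at 88.6 and 17.5 in the replicate 2 table, with DMSO at 35.8 and 31.6. Both GSK343 libraries were thus above both DMSO libraries, and both rapamycin libraries were below them. The difference was 2.70 on the log2(FPKM + 1) scale (95% interval 2.15 to 3.26, limma adjusted p = 1.76e-08).

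MVD, which decarboxylates mevalonate diphosphate, was at 167 FPKM under GSK343 and 18.9 under rapamycin in the replicate 1 table, and at 119 and 33.4 in the replicate 2 table. Its levels in DMSO, 31.7 and 41.1, lay between them in both tables, and the log2 difference was 2.44 (1.87 to 3.02, limma adjusted p = 1.75e-07). MVK, the mevalonate kinase, rose by a log2 difference of 2.23. ACAT2, a thiolase that joins acetyl-CoA units, had a log2 difference of 2.21, which was no longer called without rapamycin replicate 1 (limma adjusted p = 0.104). IDI1 and FDPS, which isomerise and join the isoprenoid units, also rose, with log2 differences of 1.76 and 1.61. The genes not called were PMVK, at 29.9 and 19.8 FPKM in the replicate 1 table and 23.1 and 20.7 in the replicate 2 table, and GGPS1, which branches off to protein prenylation and stood at 6.06 and 6.14, then 7.23 and 6.72. Among the 7 called genes the ratio of FPKM between GSK343 and rapamycin ran from 4.31 to 9.45 in the replicate 1 table and from 1.80 to 5.07 in the replicate 2 table.

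The enzymes from squalene to cholesterol followed the same direction, with 11 of 12 tested genes called and 11 higher. DHCR7, which carries out the last step to cholesterol, was at 151 FPKM under GSK343 and 8.90 under rapamycin in the replicate 1 table. In the replicate 2 table it was at 109 and 29.5, and DMSO was at 31.0 and 38.2. Rapamycin was the lowest and GSK343 the highest of the 3 in each table, and the log2 difference was 2.89 (2.26 to 3.52, limma adjusted p = 4.15e-08). MSMO1, which removes methyl groups from the sterol ring, rose by a log2 difference of 2.55 and LSS, which closes that ring, by 2.53. SQLE, the squalene epoxidase, was at 145 and 18.1 FPKM in the replicate 1 table and at 110 and 34.0 in the replicate 2 table (log2 difference 2.30, 1.73 to 2.87, limma adjusted p = 6.04e-07). The smallest called difference of this list was that of SC5D, at 1.22. TM7SF2 was not called: it stood at 4.61 and 3.19 FPKM in the replicate 1 table and 28.7 and 28.2 in the replicate 2 table.

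Of the 21 tested cholesterol genes of both lists together, 20 were above rapamycin in both tables and 20 differed more in the replicate 1 table. Their median log2 difference was 2.03, at 2.69 in the replicate 1 table and 1.21 in the replicate 2 table, whereas the median of all genes tested was 0.08. Against the same DMSO libraries, the median was 1.32 for GSK343 and -0.55 for rapamycin. DMSO lay between the compounds in both tables for 13 of the 21 genes, against 12.1% of all genes tested. It did so for 69 of the 101 genes called higher as well, so this was not particular to cholesterol genes. A wide gap between the compounds holds the DMSO level more easily than a narrow one. The count of called cholesterol genes was 12 without GSK343 replicate 1 and 9 without rapamycin replicate 1, and 4 with the small RNA, clone and zero rows kept.

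**Figure D2:**
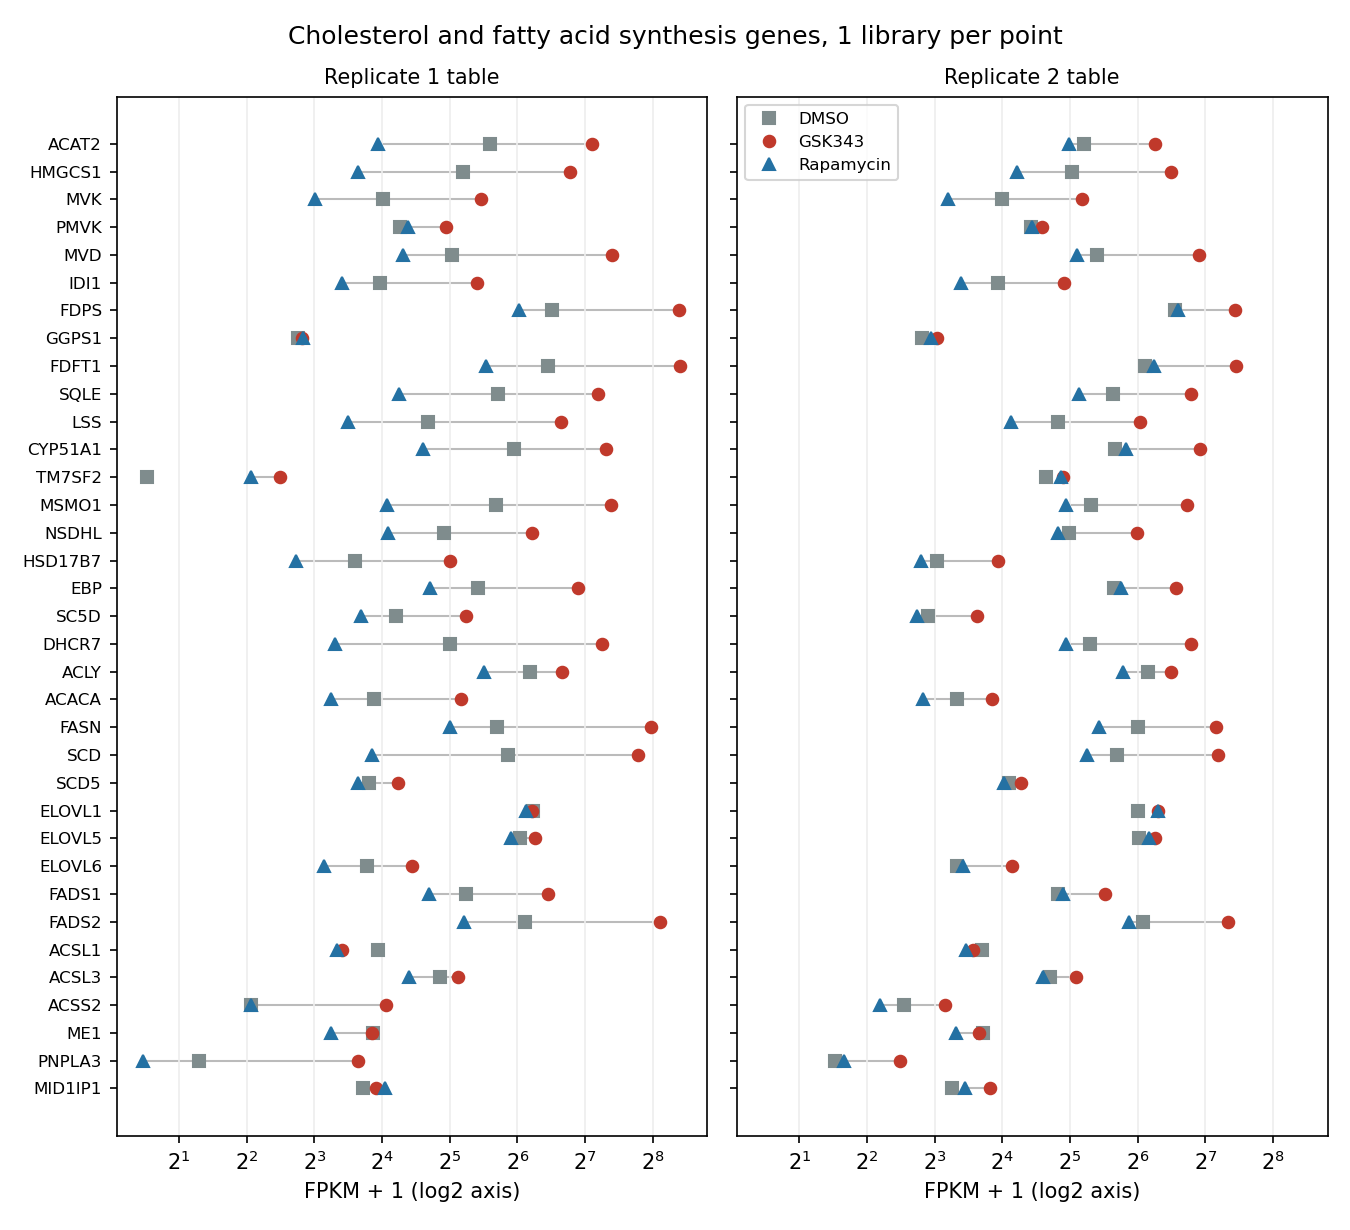
FPKM + 1 (horizontal axis, log2 scale) of genes of cholesterol synthesis (ACAT2 to DHCR7) and fatty acid synthesis (ACLY to MID1IP1) in the replicate 1 table (left) and the replicate 2 table (right), with 1 library per point and a line joining GSK343 and rapamycin. Red circles (GSK343) lie to the right of blue triangles (rapamycin) for 18 of the 19 cholesterol genes shown in both tables, with the grey squares (DMSO) often between them.

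Promoters of the called sterol genes with the largest differences are shown because these genes moved together. They are the stretches just upstream of the annotated start, from RefSeq on GRCh38.p14, with each CCAAT box, the binding sequence of NF-Y, or its reverse complement ATTGG in capitals. DHCR7 lies on the minus strand at chr11:71448394-71448543, HMGCS1 on the minus strand at chr5:43313413-43313562, INSIG1 on the plus strand at chr7:155297628-155297877 and MSMO1 on the plus strand at chr4:165327519-165327668.
DHCR7: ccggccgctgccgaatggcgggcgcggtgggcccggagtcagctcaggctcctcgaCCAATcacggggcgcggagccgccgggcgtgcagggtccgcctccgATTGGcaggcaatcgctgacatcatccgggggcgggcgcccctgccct
HMGCS1: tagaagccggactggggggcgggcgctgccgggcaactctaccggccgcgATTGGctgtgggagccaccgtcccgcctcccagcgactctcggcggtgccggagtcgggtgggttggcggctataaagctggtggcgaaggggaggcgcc
INSIG1: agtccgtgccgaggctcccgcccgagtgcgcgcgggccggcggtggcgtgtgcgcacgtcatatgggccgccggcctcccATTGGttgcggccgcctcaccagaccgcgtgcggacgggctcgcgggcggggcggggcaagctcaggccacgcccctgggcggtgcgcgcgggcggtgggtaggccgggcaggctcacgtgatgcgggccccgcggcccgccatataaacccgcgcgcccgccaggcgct
MSMO1: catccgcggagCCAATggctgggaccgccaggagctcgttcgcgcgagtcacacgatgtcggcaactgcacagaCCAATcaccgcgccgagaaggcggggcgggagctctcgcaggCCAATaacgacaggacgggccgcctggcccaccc
The DHCR7 stretch held 2 matches, beginning 94 and 48 bases before the start, and MSMO1 held 3, at 139, 76 and 34 bases. HMGCS1 had 1 match at 100 bases and INSIG1 had 1 at 170 bases. In the 250 bases before the start, CCAAT on either strand was present for 37% of the 27305 symbols in the promoter table, so a match is common. The table holds 13 of the 18 called cholesterol genes, fewer than 80%, so a share over the list is void. The letters TCACNCCAC, a spelling of the sterol regulatory element, were in 1.09% of all windows and in none of these 13. A spelling this rare would be missing from most sets of 13 windows, so its absence says nothing about these genes. These motifs were chosen after the values and matches were seen.

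Genes that sense sterols and take up cholesterol were higher under GSK343 in 5 of 15 tested cases, and none was lower. INSIG1, a SREBP target that retains the SREBP escort protein in the endoplasmic reticulum, was at 36.3 FPKM under GSK343 and 2.89 under rapamycin in the replicate 1 table, and at 30.7 and 6.90 in the replicate 2 table. DMSO was at 8.48 and 9.55, between the compounds each time. Its log2 difference was 2.63 (2.09 to 3.18, limma adjusted p = 1.76e-08). STARD4, a sterol carrier, was at 35.3 and 6.41 FPKM in the replicate 1 table and at 33.3 and 12.0 in the replicate 2 table. The 2 GSK343 libraries did not overlap with the rapamycin libraries, and the log2 difference was 1.84 (1.31 to 2.38, limma adjusted p = 1.49e-05). LPIN1, a phosphatidate phosphatase, had a log2 difference of 1.53, and SREBF1, which encodes SREBP-1, of 1.45. STARD4 was not called without rapamycin replicate 1 (limma adjusted p = 0.0663). LPIN1 and SREBF1 were called neither without that library (0.115 and 0.0527) nor without GSK343 replicate 1 (0.149 for LPIN1). The list held 3 called genes without GSK343 replicate 1 and 2 without rapamycin replicate 1, and 2 with the small RNA, clone and zero rows kept. Its median was 0.21, and its regulators SCAP, MBTPS1 and MBTPS2 and the lysosomal cholesterol exporters NPC1 and NPC2 were not called. SREBF2, the gene of SREBP-2, was at 110 and 39.8 FPKM in the replicate 1 table and at 80.5 and 56.2 in the replicate 2 table, and it was not called. ABCG1, a sterol exporter induced by the oxysterol receptor LXR and named here after its values were seen, was under the minimum mean over 8 libraries and was not tested; it was at 0.463 under GSK343 and 1.84 under rapamycin, then at 0.261 and 1.67.

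Fatty acid synthesis genes were called higher in 8 of 16 tested cases, and 15 of the 16 were above rapamycin in both tables. SCD, the desaturase that makes oleate, had the largest positive difference of all 12123 genes. It was at 220 FPKM under GSK343 and 13.5 under rapamycin in the replicate 1 table, and at 145 and 36.9 in the replicate 2 table. DMSO was at 57.2 and 50.8, above both rapamycin libraries and below both GSK343 libraries, and the log2 difference was 2.94 (2.31 to 3.57, limma adjusted p = 3.58e-08). FASN, the fatty acid synthase, was at 251 and 31.1 FPKM in the replicate 1 table and at 141 and 41.9 in the replicate 2 table. The log2 difference of FASN was 2.35 (1.75 to 2.95, limma adjusted p = 9.05e-07), and that of FADS2, which begins the synthesis of highly unsaturated fatty acids, was 2.18. PNPLA3, a lipid droplet protein induced by SREBP-1, was at 11.5 and 0.389 FPKM, then at 4.59 and 2.17. Its log2 difference of 2.00 was not called without GSK343 replicate 1 (limma adjusted p = 0.360) or without rapamycin replicate 1 (0.0683). The remaining called genes were ACACA, ACSS2, FADS1 and ELOVL6, with log2 differences of 1.47, 1.47, 1.19 and 1.01. The median of the list was 0.97, and the called genes numbered 3 without GSK343 replicate 1 and 4 without rapamycin replicate 1. They numbered 4 with median centring, 3 with no filter on low values and 0 with the small RNA, clone and zero rows kept. ACLY, which makes the acetyl-CoA that both pathways use, was at 99.9 and 44.5 FPKM in the replicate 1 table and at 88.8 and 54.2 in the replicate 2 table, and it was not called.

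Target genes of ATF4 stood higher under GSK343 in 17 of 18 tested cases in both tables, and 5 of the 18 were called, all higher (13 at an unadjusted p below 0.05). DDIT4, also named REDD1, an inhibitor of mTOR complex 1, was at 40.9 FPKM under GSK343 and 3.25 under rapamycin in the replicate 1 table, and at 41.0 and 7.53 in the replicate 2 table. The 2 GSK343 libraries were alike, and DMSO, at 18.1 and 17.7, lay below them and above rapamycin. The log2 difference of DDIT4 was 2.80 (2.25 to 3.35, limma adjusted p = 9.73e-09), the smallest adjusted p of the comparison. FGF21, a secreted stress hormone, was at 3.58 FPKM and listed at 0 in the replicate 1 table, and at 4.79 and 0.575 in the replicate 2 table (log2 difference 2.04, 1.49 to 2.58, limma adjusted p = 2.85e-06). CHAC1, which degrades glutathione, was at 13.6 and 2.19 FPKM, then at 16.9 and 5.70 (log2 difference 1.81, 1.28 to 2.33, limma adjusted p = 1.46e-05), and lost its call without rapamycin replicate 1 (0.0679).

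NUPR1, a stress-induced chromatin protein, and DDIT3, the transcription factor CHOP, were also called, with log2 differences of 1.26 and 1.03. NUPR1 stood at 109 and 27.6 FPKM in the replicate 1 table and at 96.5 and 64.8 in the replicate 2 table, and neither leaving out GSK343 replicate 1 nor leaving out rapamycin replicate 1 kept its call. DDIT3 lost its call without GSK343 replicate 1 (limma adjusted p = 0.882), without its replicate 2 (0.0598) and without rapamycin replicate 1, where the adjusted p rounded to 1. ATF4 itself was at 374 and 209 FPKM, then at 405 and 360, and was not called. PPP1R15A, which restarts translation after stress, was the 1 gene of the list below rapamycin in both tables, at 29.3 and 35.5, then 36.1 and 41.6. Without GSK343 replicate 1, 3 genes of the list were called, and without rapamycin replicate 1, 2. With median centring, quantile normalization or TPM scaling 3 were called, and with the small RNA, clone and zero rows kept, 2. The median log2 difference of the list was 0.89, and against the shared DMSO libraries it was 0.46 for GSK343 and -0.51 for rapamycin.

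The promoters of CHAC1 and FGF21 are shown because both held TTGCATCA, a composite C/EBP and ATF element, printed here in capitals. Both stretches come from RefSeq on GRCh38.p14 and lie on the plus strand, at chr15:40953221-40953470 for CHAC1 and at chr19:48755374-48755523 for FGF21.
CHAC1: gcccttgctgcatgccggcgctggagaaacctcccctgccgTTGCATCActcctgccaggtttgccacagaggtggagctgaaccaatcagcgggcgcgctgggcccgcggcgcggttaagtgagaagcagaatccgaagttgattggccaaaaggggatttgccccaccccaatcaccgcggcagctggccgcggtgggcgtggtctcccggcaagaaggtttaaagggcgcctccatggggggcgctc
FGF21: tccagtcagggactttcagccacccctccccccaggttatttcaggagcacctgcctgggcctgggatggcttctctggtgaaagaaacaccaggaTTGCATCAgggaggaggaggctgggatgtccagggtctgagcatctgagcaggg
The match began 209 bases before the start of CHAC1 and 54 bases before that of FGF21. On either strand it was present in the 250 bases before the start for 0.967% of all symbols in the promoter table. A looser spelling, TGATGNAA, is the same element read on the other strand with 1 letter left free. It was present for 3.89%, and every TTGCATCA match is also a match of it. Of the 18 tested ATF4 target genes, 16 had a promoter entry and 4 of these held TTGCATCA: CHAC1, FGF21, CEBPG and JDP2. CEBPG and JDP2 were not called. Of the 5 called ATF4 target genes, 4 had an entry and 2 of these held it, CHAC1 and FGF21. DDIT4 and DDIT3 had an entry without a match. CHAC1 and FGF21 were thus chosen after the matches were seen. A match describes the letters and was not tested as a binding site.

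Among genes of amino acid supply 1 was called. None of the 15 tested genes of serine, one-carbon and asparagine synthesis was called by limma; their median log2 difference was 0.40 (0.56 in the replicate 1 table, 0.27 in the replicate 2 table), 12 were above rapamycin in both tables and 5 were higher at an unadjusted p below 0.05. CBS, which makes cystathionine, had a log2 difference of 1.03 with an interval of 0.47 to 1.59 (limma adjusted p = 0.0536), PSPH, which makes serine, 0.93 (0.42 to 1.44, 0.0575) and PSAT1, which acts before it, 0.94 (0.36 to 1.52, 0.119). Of 14 amino acid transporters, 1 was called: SLC6A9, a glycine transporter, at 10.4 and 2.71 FPKM, then 9.51 and 5.32 (log2 difference 1.17, limma adjusted p = 0.00840). This call was lost without GSK343 replicate 1 and without rapamycin replicate 1. None of 19 aminoacyl tRNA synthetases was called by limma (median 0.21), with 2 higher at an unadjusted p below 0.05.

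ESM1, TGFBI and CD44 were among the 20 genes lower under GSK343. ESM1, a secreted proteoglycan, was at 0.862 FPKM under GSK343 and 6.78 under rapamycin in the replicate 1 table, and at 1.88 and 38.4 in the replicate 2 table. DMSO was at 0.431 and 0.166, below both compounds in each table, so rapamycin was the high condition. ESM1 fell by 2.92 on the log2(FPKM + 1) scale from rapamycin to GSK343 (95% interval -3.61 to -2.23, limma adjusted p = 1.92e-07). TGFBI, a matrix protein induced by TGF-beta, was at 13.1 and 43.2 FPKM, then at 5.79 and 18.8. DMSO lay between, at 14.2 and 10.5, and the log2 difference was -1.60 (-2.13 to -1.06, limma adjusted p = 0.000160), with no call without rapamycin replicate 1 (0.115). CD44, the hyaluronan receptor, was at 18.5 and 53.8 FPKM, then at 31.2 and 68.5, with DMSO between in both tables at 33.6 and 32.5. Its log2 difference was -1.30 (-1.83 to -0.76, limma adjusted p = 0.00363), and the call was kept without GSK343 replicate 2 and lost without any 1 of the other 3 libraries.

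Over the list of YAP and TGF-beta responsive secreted genes, 2 of 20 were called lower (ESM1 and TGFBI) and 12 were below rapamycin in both tables. Called lower were 4 with median centring, quantile normalization or TPM scaling, and 0 with the small RNA, clone and zero rows kept. At an unadjusted p below 0.05, 9 were lower and 1 was higher. The list's median log2 difference was -0.47, at -0.32 in the replicate 1 table and -0.53 in the replicate 2 table. CTGF, a matricellular YAP target, was at 178 and 228 FPKM in the replicate 1 table and at 141 and 454 in the replicate 2 table, and CYR61, its relative, at 171 and 286, then 151 and 314. Neither was called. BMP4 was above rapamycin, at 78.7 and 25.0 FPKM, then 42.4 and 34.6, without a call. Of 28 collagen and matrix genes none was called by limma, with a median of 0.03; 3 were higher and 2 lower at an unadjusted p below 0.05.

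Of the 23 immediate early genes tested, KLF2 and MYC were called and both were lower under GSK343. MYC, the growth transcription factor, was at 30.9 FPKM under GSK343 and 59.2 under rapamycin in the replicate 1 table, and at 27.5 and 63.4 in the replicate 2 table. DMSO was at 33.4 and 25.4, close to the GSK343 values, and the log2 difference was -1.05 (-1.58 to -0.51, limma adjusted p = 0.0368). KLF2, a Krüppel-like transcription factor, was at 11.0 and 22.2, then at 9.73 and 27.4, with a log2 difference of -1.18 (-1.75 to -0.61, limma adjusted p = 0.0197). The MYC call was lost without any 1 of the 4 libraries, and the KLF2 call was lost without GSK343 replicate 2 or rapamycin replicate 1. The median of the list was -0.02.

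**Figure D3:**
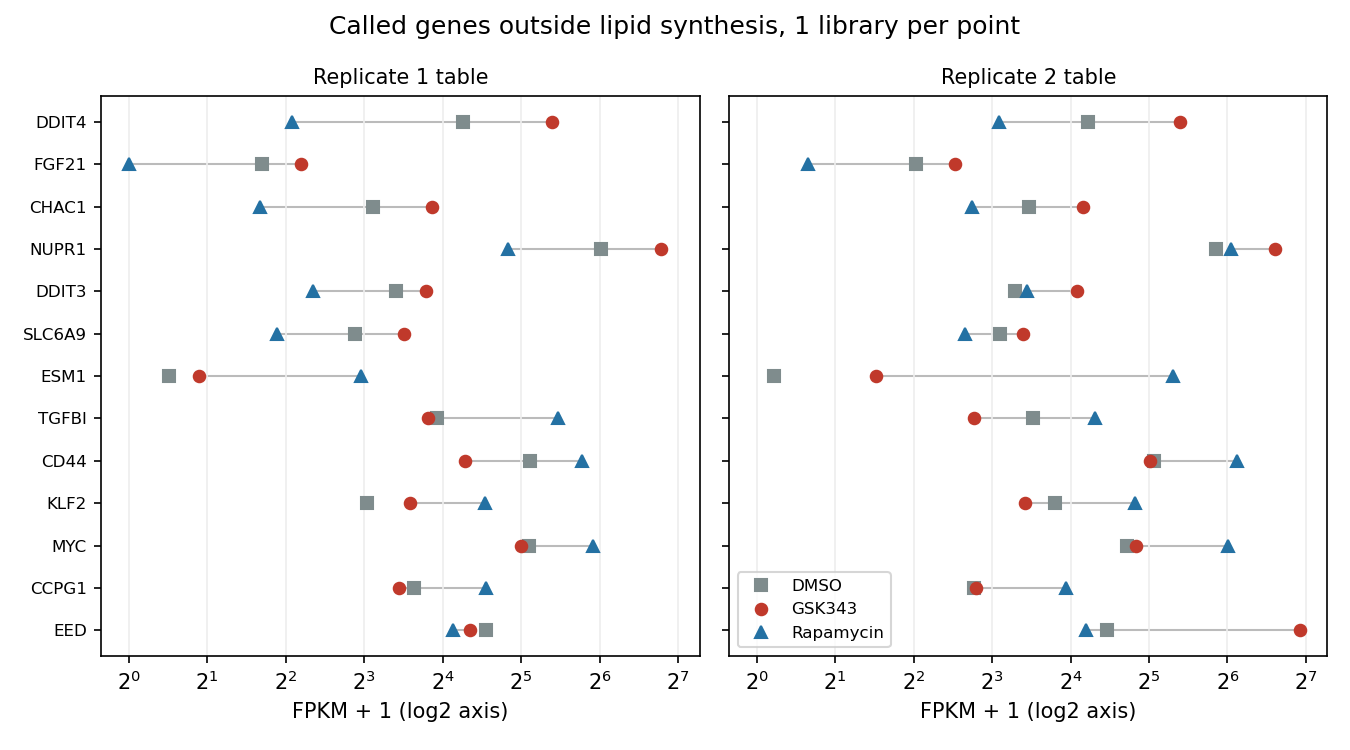
FPKM + 1 (horizontal axis, log2 scale) of 13 called genes outside lipid synthesis in the replicate 1 table (left) and the replicate 2 table (right), with 1 library per point and a line joining GSK343 and rapamycin. From DDIT4 to SLC6A9 the red circles (GSK343) lie to the right of the blue triangles (rapamycin), from ESM1 to CCPG1 they lie to the left, and EED is set apart by the GSK343 library of the replicate 2 table.

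Of 11 genes of PRC2 and its partners, 1 was called, and it was not EZH2, the target of GSK343. EZH2 was at 8.04 FPKM under GSK343 and 11.3 under rapamycin in the replicate 1 table, and at 12.8 and 11.9 in the replicate 2 table (log2 difference -0.17, interval -0.69 to 0.34, not called). EZH1, its homologue, had a log2 difference of -0.12 (-0.65 to 0.41) and SUZ12, a core subunit, of 0.11 (-0.41 to 0.63). EED, the subunit that reads the methyl mark, was called at a log2 difference of 1.48 (0.77 to 2.19, limma adjusted p = 0.0197), but the call came from 1 library. It was at 19.5 and 16.5 FPKM in the replicate 1 table and at 121 and 17.3 in the replicate 2 table, and the limma adjusted p was 0.940 without GSK343 replicate 2 and 0.364 without rapamycin replicate 2. Of the 41 listed Polycomb target genes, mostly HOX and developmental transcription factor genes, 25 passed the FPKM minimum and none was called by limma, with 2 higher at an unadjusted p below 0.05. Their median log2 difference was 0.20, at 0.30 in the replicate 1 table and -0.05 in the replicate 2 table.

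MTOR had a log2 difference of 0.07 (-0.47 to 0.60), RPTOR, the mTOR complex 1 scaffold, of -0.04 (-0.59 to 0.51), RICTOR, the mTOR complex 2 scaffold, of -0.19 (-0.70 to 0.33), and FKBP1A, which encodes the rapamycin-binding FKBP12, of -0.10 (-0.65 to 0.45). None of the 16 tested genes of the mTOR complexes was called by limma, and 1 was higher at an unadjusted p below 0.05. KDM1A, the histone H3K4 demethylase LSD1, had a log2 difference of 0.44 (-0.09 to 0.98). The 95% interval, which is not adjusted for the number of genes, reached 0.54 to each side of the estimate at the median over all genes. Called differences began only at 0.99 among genes called higher and at -1.04 among genes called lower. A gene without a call may therefore still differ by less than that.

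Autophagy, the degradation pathway that inhibition of mTOR complex 1 is known to induce, was covered by 5 lists. Of their 50 tested genes, 2 were called, both lower under GSK343, against 0.165% of all genes tested, and the median log2 difference was -0.01. With median centring, quantile normalization or TPM scaling 1 was called. CCPG1, a receptor for autophagy of the endoplasmic reticulum, was at 9.89 FPKM under GSK343 and 22.5 under rapamycin in the replicate 1 table, and at 5.92 and 14.3 in the replicate 2 table. DMSO, at 11.4 and 5.82, was close to the GSK343 values. The log2 difference was -1.13 (-1.63 to -0.62, limma adjusted p = 0.00874), and leaving out any 1 of the 4 libraries ended the call. The readthrough row DYX1C1-CCPG1, also called at -1.04, held the same values as CCPG1 in the replicate 2 table, so it is not a separate observation. MAP1LC3B2, nearly identical in sequence to MAP1LC3B, was listed at 0 and 8.52 FPKM, then at 1.35 and 2.29 (log2 difference -1.87). Its call was lost without either replicate 1 library, and how reads were split between the pair is not known.

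MAP1LC3B, which encodes the autophagosome protein LC3B, had a log2 difference of -0.32 (-0.85 to 0.22) and GABARAPL1, of the same family, -0.30 (-0.84 to 0.24). SQSTM1, the cargo receptor p62, had a log2 difference of 0.36 (-0.20 to 0.92), ULK1, the initiating kinase, of -0.11 (-0.68 to 0.46), and WIPI1, a phosphoinositide binder, of 0.23 (-0.30 to 0.76). TFEB, the transcription factor of lysosome and autophagy genes, was at 3.60 and 2.76 FPKM, then at 3.40 and 2.05 (log2 difference 0.41, -0.13 to 0.95). None of these 6 was called. SQSTM1, ULK1, WIPI1 and GABARAPL1 were above DMSO under both compounds in both tables. SQSTM1, for instance, was at 133 and 92.2 FPKM against 50.2, then at 165 and 144 against 98.7. Of the 50 tested autophagy genes, 16 were above DMSO under both compounds in both tables and 7 were below it. Over all 12123 genes tested, these counts were 1966 and 2228.

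Lysosomal genes gave no limma call in 39 (1 at an unadjusted p below 0.05, lower), with a median of 0.05, and 12 were above and 9 below rapamycin in both tables. The V-ATPase subunits, which acidify the lysosome, gave no call in 17 and none at an unadjusted p below 0.05, while 14 were above rapamycin in both tables (median 0.24). The largest among those were ATP6AP1 (0.44, -0.12 to 1.00), ATP6V1B2 (0.42, -0.10 to 0.94) and ATP6V0D1 (0.36, -0.17 to 0.89).

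**Figure D4:**
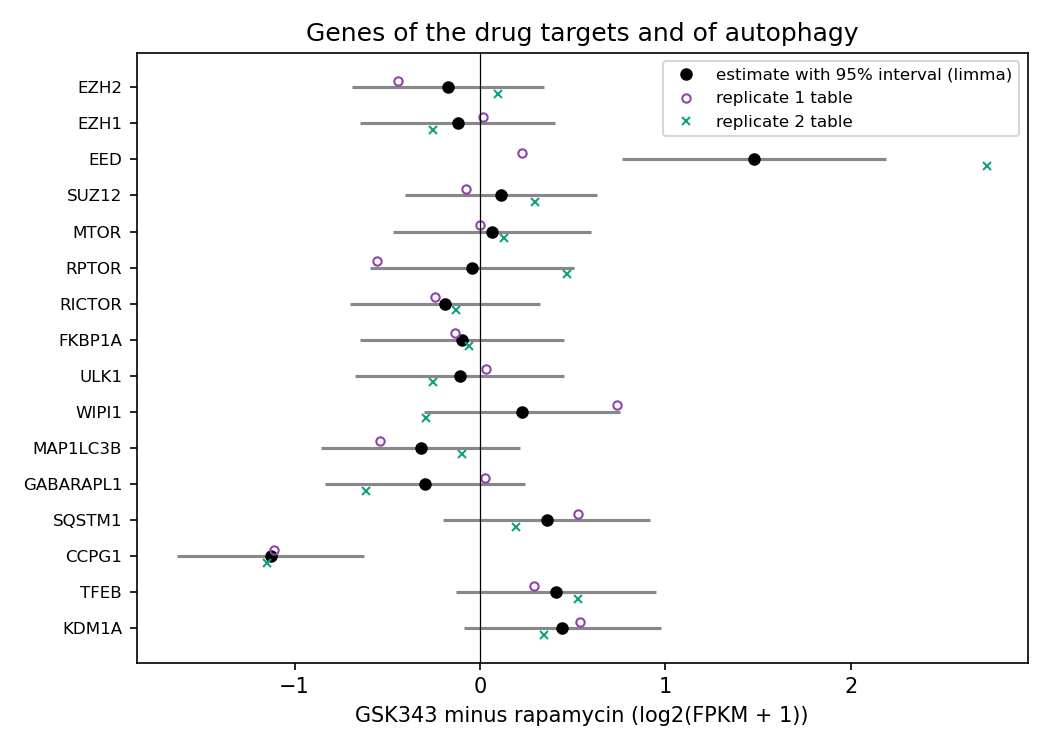
Log2 difference between GSK343 and rapamycin (horizontal axis, log2(FPKM + 1)) for genes of the drug target complexes and of autophagy, with the limma estimate and its 95% interval (black point and line) and the difference in each table (open circles, replicate 1; crosses, replicate 2). The intervals of all but EED and CCPG1 include 0, and for EED the 2 tables lie far apart.

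Ribosomal protein and translation factor genes gave no call. Of 77 cytosolic ribosomal protein genes none was called by limma, and none had an unadjusted p below 0.05. The median log2 difference was -0.08, at 0.04 in the replicate 1 table and -0.21 in the replicate 2 table. In GSK343, 27 were below rapamycin in both tables and none was above in both. RPL9 (-0.25, -0.85 to 0.36), RPS13 (-0.22, -0.83 to 0.38) and RPL12 (-0.21, -0.82 to 0.39) were the 3 lowest of those 27. Of 22 translation factor genes with terminal oligopyrimidine tracts, whose translation depends on mTOR complex 1, none was called, none had an unadjusted p below 0.05, and 16 were below in both tables (median -0.18). EEF2, the elongation factor, had a log2 difference of -0.32 (-0.92 to 0.29), VIM, listed with them, of -0.35 (-0.95 to 0.26), and NAP1L1, a histone chaperone, of -0.28 (-0.84 to 0.27). In ribosome biogenesis 1 of 43 genes was called: NOP56, a small nucleolar ribonucleoprotein, whose values were 52.1 and 51.6 FPKM in the replicate 1 table and 67.5 and 549 in the replicate 2 table. That call was lost without GSK343 replicate 2 (limma adjusted p = 0.461) and without rapamycin replicate 2, where the adjusted p rounded to 1.

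Replication-dependent histone genes were called in both directions, 5 higher and 2 lower of 20 tested, with a median of 0.42, but not under other scalings. With median centring, quantile normalization or TPM scaling 2 were called higher and 0 lower, with the small RNA and clone rows kept 1 and 0, and with the zero rows kept as well 0 and 0. HIST1H3A and HIST1H2AK, which are not on the list, were called too, at log2 differences of 1.64 and -1.19; both lost their call without either replicate 1 library. HIST1H2BJ was at 42.0 and 14.2 FPKM, then at 94.0 and 48.3 (log2 difference 1.22, 0.69 to 1.76, limma adjusted p = 0.00738). HIST1H3D was at 5.95 and 0.000132 FPKM, then at 8.07 and 5.64, so its log2 difference of 1.62 came from the replicate 1 table. HIST1H2BC, HIST1H2AH and HIST1H4H were also called higher, at 1.13, 1.19 and 1.11. HIST1H4C went the other way, at 1.04 and 4.71 FPKM, then 14.3 and 31.9 (log2 difference -1.29, -1.88 to -0.71, limma adjusted p = 0.00919), and HIST1H4E was listed at 0 and 6.65, then at 7.27 and 7.44. The HIST1H4H call was lost without any 1 of the 4 libraries. The calls of HIST1H3D and HIST1H4E were lost without either replicate 1 library, that of HIST1H4C without rapamycin replicate 1 or GSK343 replicate 2, and those of HIST1H2BJ, HIST1H2BC and HIST1H2AH without any 1 library but GSK343 replicate 2. These transcripts mostly lack poly(A) tails and come from near-identical copies, and the libraries were made from poly(A) RNA, so their values are uncertain.

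Glycolytic and insulin signalling genes gave 1 call each. PFKFB4, an enzyme that tunes glycolysis, was the 1 gene called among 22 glycolytic genes (log2 difference 1.10, 0.56 to 1.64, limma adjusted p = 0.0246), and PIK3R3, a regulatory subunit of phosphoinositide 3-kinase, the 1 called among 20 insulin signalling and FOXO genes (0.99, 0.48 to 1.51, limma adjusted p = 0.0404). Both kept their call without GSK343 replicate 2 and lost it without any 1 of the other 3 libraries. None of 18 NRF2 targets was called by limma (3 higher at an unadjusted p below 0.05); HMOX1, heme oxygenase 1, was at 68.7 and 16.7 FPKM in the replicate 1 table but at 36.9 and 34.8 in the replicate 2 table (log2 difference 1.03, 0.41 to 1.65, limma adjusted p = 0.103). AKR1C3, an aldo-keto reductase, had a log2 difference of 0.67 (0.10 to 1.23) and PGD, of the pentose phosphate pathway, of 0.56 (0.01 to 1.12). None of 16 hypoxia targets was called by limma (median -0.16, with 2 higher and 1 lower at an unadjusted p below 0.05); the matrix enzymes PLOD2 (-0.51, -1.05 to 0.02) and LOX (-0.46, -0.97 to 0.06) were below rapamycin in both tables. CDKN1A, the cell cycle inhibitor p21, had a log2 difference of 0.56 (-0.01 to 1.13). Genes of DNA replication (39 tested), mitosis (41), the proteasome (31), heat shock (19), the unfolded protein response (24) and the respiratory chain (51) gave no limma call, with list medians between -0.02 and 0.19. At an unadjusted p below 0.05 stood 2 unfolded protein response genes and 1 heat shock gene, all higher, and none of the other 4 lists.

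Of the 20 genes called lower, 8 remained called without GSK343 replicate 1 and 5 without rapamycin replicate 1, and several rested on 1 library or on a 0. KIAA0430 stood at 4.67 and 5.79 FPKM in the replicate 1 table but at 5.48 and 260 in the replicate 2 table, and without rapamycin replicate 2 the limma adjusted p rounded to 1. SYS1-DBNDD2, CFLAR-AS1, MEF2B and HIST1H2AK were listed at 0 under GSK343 in the replicate 1 table and at 5.66, 2.77, 4.50 and 2.41 FPKM under rapamycin there. In the replicate 2 table they were at 58.0 and 73.5, 0.847 and 2.34, 18.3 and 18.4, and 1.65 and 3.04. FAM172A was at 5.47 and 9.08, then 3.60 and 15.9, and lost its call without either replicate 2 library. LOC152225, at 0.811 and 3.09, then 0.692 and 4.04, lost it without rapamycin replicate 2. WBSCR27 was at 0.329 and 1.82, then at 1.56 and 5.40, and lost its call without any 1 of the 4 libraries. Among the genes called higher, SNURF, at 29.6 and 0.0288 FPKM in the replicate 1 table and at 123 and 93.2 in the replicate 2 table, was called through the replicate 1 table (log2 difference 2.64, 1.45 to 3.83, limma adjusted p = 0.00965) and lost its call without either library of it. SNURF shares its transcript with SNRPN, SYS1-DBNDD2 is a readthrough row and CFLAR-AS1 is antisense to CFLAR, so reads of these rows may belong to their neighbours. A library at 0 occurred in 17 of the 121 called genes.

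**Figure D5:**
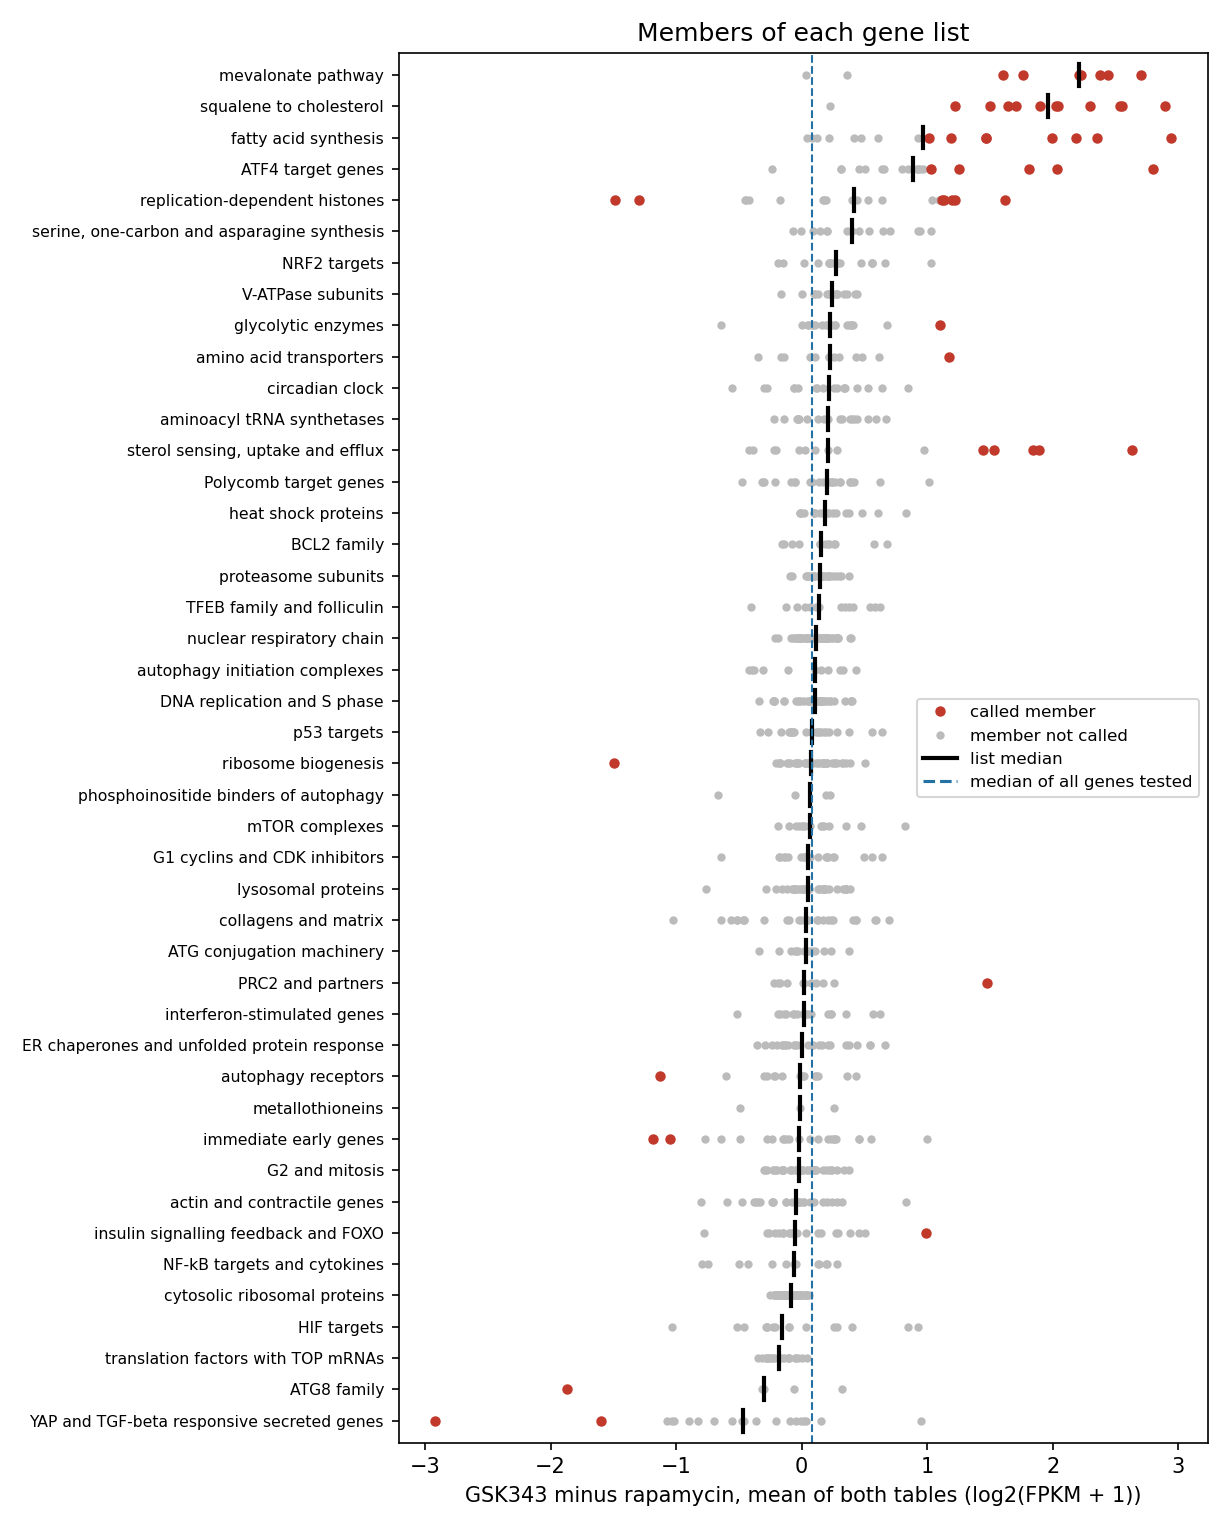
Log2 difference between GSK343 and rapamycin (horizontal axis, mean of both tables, log2(FPKM + 1)) of every tested member of each gene list, ordered by the list median (black bar). Red points were called, grey points were not, and the dashed line is the median of all genes tested (0.08); the mevalonate, squalene to cholesterol, fatty acid and ATF4 lists have the highest medians and the YAP and TGF-beta list the lowest.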

How the data were processed

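The authors deposited FPKM values per gene in 2 tables, replicate 1 with 28502 rows and replicate 2 with 25209. Per the submitters' processing notes, FastQC, cutadapt and TopHat2 with the hg19 build were used; the sources used here name neither the program and annotation behind FPKM nor the strand, so overlapping and near-identical genes are uncertain. Per the labels' protocols, poly(A) RNA was used with PCR amplification.

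Values were log2(FPKM + 1), with all differences taken within a table. Of 12603 genes whose mean over 8 libraries reached 1 FPKM, 480 were left out: 367 small RNA or clone rows, whose FPKM is unstable in poly(A) libraries, and 393 rows at 0 throughout 1 table (some rows are both). A row named unknown was also left out. limma 3.58.1 (R 4.3.3) was fitted to the DMSO, 2-PCPA, GSK343 and rapamycin libraries with the replicate number as a block, because each number is 1 table, and a trend of the variance on intensity. Its residual degrees of freedom were 3 and its prior degrees 36.5, and p-values were adjusted by Benjamini-Hochberg. Deviations from group means correlated at 0.738 to 0.819 between libraries of the same number over 6 pairs. The fit was also run on data simulated from its own fitted spread with independent errors. Such data cannot show whether that spread suits the real libraries. The median SE of a log2 difference was 0.27. Alternatives numbered 22.

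The samples, the row set, the 45 gene lists and the rule for named genes were chosen with earlier results of these data known, including that leaving out such rows raises the number of calls. Named genes were the 15 largest called genes in each direction that moved the same way in both tables, up to 4 called members or 3 uncalled members of each list with a call or a median at least 0.15 from that of all genes, and a fixed set of drug target and autophagy genes. Other genes named were chosen after their values were seen. Promoters are RefSeq entries on GRCh38.p14. On both strands of the 250 bases before the start 7 motifs were searched, and not all of them are reported. The first entry of a gene was used, and 150 bases were printed, or 250 where those held no match. Some genes of the lists count in the totals but are not reported here by name.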

Additional observations from a re-analysis of the deposited data

How the results depend on the processing

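The number of called genes depended strongly on the row set and on how the spread was shared. Called, higher and lower genes numbered 121, 101 and 20, against 10, 10 and 0 with small RNA, clone and zero rows kept, and 65, 58 and 7 with the small RNA and clone rows kept but not the zero rows. They numbered 62, 58 and 4 with a pseudocount of 0.1 and 189, 149 and 40 with 5, 48, 38 and 10 with no filter on low values, and 198, 159 and 39 with robust eBayes. With another scaling they were 60, 49 and 11 (median centring), 65, 52 and 13 (quantile normalization) and 64, 54 and 10 (TPM). With 2 groups in the fit they were 52, 43 and 9, and without 2-PCPA 62, 53 and 9. Leaving out 1 library gave 46 to 315 called, 32 to 273 higher and 9 to 42 lower: 51 called without GSK343 replicate 1, 315 without its replicate 2, 46 and 154 without rapamycin replicates 1 and 2, 93 and 92 without the DMSO libraries, and 62 and 64 without the 2-PCPA libraries. A group left with 1 library is assumed to vary like the others. The prior degrees of freedom, 36.5 in the reported fit, were 5.42 with all rows kept, 7.19 without 2-PCPA and 6.83 with median centring, and infinite with robust eBayes, with the 5 FPKM minimum and without any 1 of the GSK343 and rapamycin libraries; other causes were not tested. A minimum of 5 FPKM and a fit with no trend moved the counts by less than 1.5 times.

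Without the replicate block 0 genes were called, 0 higher and 0 lower, although 288 had an unadjusted p below 0.05 in that limma fit, against 919 with the block.

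The sterol and fatty acid lists held 31 called genes, and 15 to 33 under the alternatives other than dropping the block (0) and keeping all rows (6). Directions reversed only among named genes that were not called. Leaving out 1 library gave ranges of -0.65 to 0.023 for EEF2, -0.42 to 0.068 for EZH2, -0.060 to 0.28 for SUZ12, -0.20 to 0.33 for MTOR, -0.54 to 0.46 for RPTOR, -0.58 to 0.36 for ULK1, -0.18 to 0.63 for WIPI1 and -0.64 to 0.047 for GABARAPL1. MTOR was -0.029 with median centring and -0.036 with quantile normalization. FPKM values hold no read counts, so the precision of low genes is unknown.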

Other observations

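Outside the gene lists, 67 of the 121 called genes remained, and several named here after their values were seen act in sterol or lipid metabolism. C14orf1, the ERG28 homologue of the sterol demethylation complex, was at 141 FPKM under GSK343 and 32.5 under rapamycin in the replicate 1 table and at 92.8 and 51.3 in the replicate 2 table (log2 difference 1.46, limma adjusted p = 0.00160). TMEM97, a sterol-regulated membrane protein, was at 92.9 and 20.7, then at 62.6 and 24.8 (1.71, limma adjusted p = 7.44e-05). PCYT2, of phosphatidylethanolamine synthesis, and IDH1, which supplies cytosolic NADPH, had log2 differences of 1.64 and 1.57. MMAB, which shares a promoter with MVK, had a log2 difference of 1.09. All 5 lost their call without GSK343 replicate 1, and also without rapamycin replicate 1.

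Called genes outside lipid and amino acid metabolism, also named after their values were seen, included SLC29A2, a nucleoside transporter, at 23.9 and 3.57 FPKM, then 18.1 and 5.95 (log2 difference 1.95, limma adjusted p = 9.84e-06). IGFL3, an insulin growth factor-like protein, was at 6.50 and listed at 0, then at 5.25 and 1.42. HES6, a transcription factor of the HES family, was at 9.48 and 0.958, then at 6.59 and 2.31 (log2 difference 1.81). GLI1, the effector of Hedgehog signalling, was at 17.4 and 1.64 in the replicate 1 table but at 4.51 and 2.25 in the replicate 2 table (1.78). S100A4, a calcium-binding protein on the list of mesenchymal markers, was at 5.59 and listed at 0, then at 8.38 and 3.37 (1.91), while the other 5 markers of that list were not called. RBBP8, a DNA repair nuclease, was at 19.5 and 16.9 in the replicate 1 table and at 177 and 19.5 in the replicate 2 table. As for EED, GSK343 replicate 2 stood apart, but RBBP8 was also at 132 FPKM in 2-PCPA replicate 2, where EED was at 17.7. HES6 and GLI1 lost their call without GSK343 replicate 1 and S100A4 without rapamycin replicate 1 (limma adjusted p = 0.117 for S100A4). RBBP8 lost it without either replicate 2 library, whereas SLC29A2 and IGFL3 kept theirs without any 1 of the 4.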
